A study of Arabidopsis thaliana with 24 samples.

Results

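The table of read counts held 147 features named as microRNA (miRNA) genes, that is, rows whose identifier contains MIR, of 38194 features in all. They were chosen by name alone, and all 147 matched a gene symbol of the RefSeq annotation of TAIR10.1. Of these, 19 were measured, meaning at least 10 counts in at least 3 of the 24 libraries, which is 12.9% of them. A further 43 had no read in any library, and 85 had some reads but stayed under that limit. Another 178 miRNA genes stand in the table under locus numbers, among them many of the conserved families. They are not members here and serve only as a comparison.

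Plant miRNA genes are transcribed by RNA polymerase II into long primary transcripts that fold back into hairpins. The nuclease DICER-LIKE1 cuts the hairpin in the nucleus and releases a duplex, and 1 strand of it is loaded into ARGONAUTE1, where it guides the cutting or the translational repression of target mRNAs. In leaves, conserved miRNAs set ageing, leaf polarity, vascular patterning and auxin responses through transcription factor mRNAs. The libraries analysed here were made from long RNA, so a count is of reads from the locus (a primary transcript, a hairpin or a gene that overlaps it) and not of the mature miRNA.

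Each sample pooled detached leaves (leaves 1 and 2) of Arabidopsis thaliana, accession Columbia-0, grown for 10 d under continuous light. All samples were held for 8 h in a buffer with 5.0% glucose and dimethyl sulfoxide. Mock leaves received nothing else. Stimulus leaves received 20 µM bikinin (an inhibitor of the GSK3-like kinases that hold back brassinosteroid signalling), the cytokinin kinetin at 0.5 µg/mL and, at 2.5 µg/mL, the synthetic auxin 2,4-dichlorophenoxyacetic acid. Cordycepin at 1 mM, an adenosine analogue that ends RNA chains, was then given to both treatments. Samples were taken 0, 15, 60 and 240 min later, with 3 libraries (numbered 2, 3 and 4) in each of the 8 groups. The design asks how abundance and RNA decay respond to the stimulus.

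Library totals ran from 24021278 to 34166478 counts, and organelle features took 30.7 to 46.9% of them. Leaf identity was checked on marker genes. The mesophyll gene RBCS1A lay between 2160 and 13600 CPM (the count scaled to library size). The other mesophyll genes were LHCB1.3 (1810 to 10600 CPM), GAPA (288 to 2200), CA1 (93.9 to 1450) and LHCB2.1 (2.81 to 793). LHCB2.1 thus varied widely between libraries. The root hair gene COBL9 did not pass 0.248 CPM. Libraries of the same group were not alike in 2 indices. A clock index (mean log2 level of evening genes minus that of morning genes) lay between 0.73 and 3.77 in 8 libraries and at 0.15 or less in the other 16. These 8 comprised the 0, 15 and 60 min libraries of mock replicate 3, the 15, 60 and 240 min libraries of stimulus replicate 3, and both 240 min libraries numbered 4. A decline index, the mean log2 change since 0 min of 200 nuclear transcripts, was also uneven. At 240 min it was -0.14 in mock replicate 2, -0.48 in mock replicate 3 and -2.94 in mock replicate 4, against -2.83, -1.65 and -2.91 in the stimulus series. Its 200 transcripts were the ones that fell most in stimulus replicate 2, so it gives no independent view of that series. A list of 15 WRKY, ERF and ZAT genes with rapid turnover was set aside as a measure of decline, because its mean was above the 0 min level in 16 of the 18 later libraries.

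The mature sequences of the members that the results turn on are given 5′ to 3′ from RefSeq TAIR10.1, with the seed (bases 2 to 8) in capitals. The 5 hairpins with the most reads per base come first, and then those that were lower under the stimulus.
miR4228-5p: aUAGCCUUgaacgccgucguu
miR4228-3p: uCGGAUGCgaaacgguggugu
miR5642a: uCUCGCGCuuguacggcuuu
miR5642b: uCUCGCGCuuguacggcuuu
miR2936: cUUGAGAGagagaacacagacg
miR8176: gGCCGGUGgucgcgagaggga
miR8170-5p: aUAGCAAAucgauaagcaaug
miR8170-3p: uUGCUUAAagauuuucuaugu
miR5026: aCUCAUAAgaucgugacacgu
miR3932b-5p: uUUGACGUgcucgaucugcuc
miR3932b-3p: aACUUUGUgaugacaacgaag
miR5629: uUAGGGUAguuaacggaaguua
miR5996: uGACAUCCagauagaagcuuug

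RefSeq lists 27 mature products for the 19 measured members, with 26 different seeds. The one shared seed is that of miR5642a and miR5642b, whose mature sequences are the same letter for letter. Their annotated hairpins are near copies as well, with 368 identical bases over 374 aligned columns (98.4%). Reads of 50 bases from these 2 loci can therefore often come from either, and their separate counts are uncertain.

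Nearly all reads on miRNA features came from 3 loci. The 147 members took 0.0612 to 0.135% of a library's counts, and MIR4228, MIR5642a and MIR5642b together held 97.1% of the 638268 member counts. MIR4228 alone held 67.3%. Per length, in mock leaves at 0 min, MIR4228 stood at 3448 ± 276 CPM per kb (SD, n = 3), MIR5642a at 530 ± 55.5 and MIR5642b at 379 ± 34.6. The next were MIR2936 at 30.3 ± 3.6 and MIR8176 at 22.8 ± 2.37 CPM per kb. MIR5026 at 14.4 ± 1.76, MIR3932b at 14.1 ± 3.54 and MIR8170 at 12.6 ± 0.742 CPM per kb did not differ from each other beyond these SDs. MIR5996 at 6.43 ± 0.827, MIR5629 at 5.86 ± 0.739 and MIR8181 at 5.26 ± 1.35 CPM per kb also lay within each other's spread. The remaining 8 measured members had means over 24 libraries between 0.862 and 2.37 CPM per kb. Among the 128 that were not measured, no feature passed 121 reads in all 24 libraries together, or 16 in a single library.

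The measured members were mostly features that lie inside other genes. Of the 19, 18 overlapped a gene annotated on the same strand and 15 lay fully inside one, whereas 92 of the 128 unmeasured members had no such overlap. MIR5664 was the only measured member without one. The table counted the overlapping gene at least as high as the member in 24 of 24 libraries for every member with such a gene, other than MIR8176 and the small nucleolar RNA on it. A read may thus be counted in both rows, and the counts alone do not separate a change of the member from one of the gene around it. Not every member followed its gene over the 24 libraries. The Spearman correlation of their shares of the library total was 1.00 for MIR4228, 0.98 for MIR2936 and 0.96 for MIR3932b and MIR5026. It was 0.34 for MIR2112, 0.30 for MIR5654, 0.21 for MIR8181 and -0.10 for MIR5014a. Whether the authors' counting used strand is not given in the sources used here. At MIR5642a, the opposite-strand gene AT3G41762 shares 92 bases with the member and had 253 counts in all, against 110283 for the member.

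**Figure D1:**
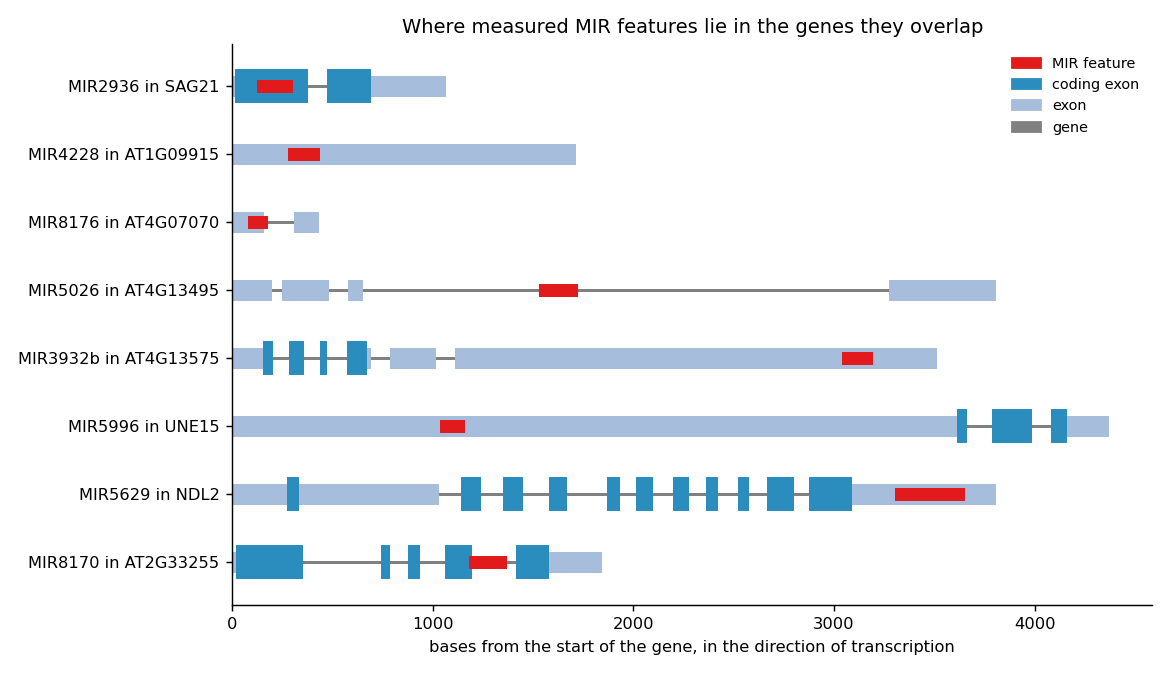
Positions of 8 measured MIR features (red) in the genes they overlap on the same strand, in bases from the start of each gene in the direction of transcription; all transcript models of a gene are laid over each other, with sequence coding in any model in dark blue, other exon sequence in light blue and introns as grey lines. MIR2936 lies in the first exon of SAG21, MIR5026 in an intron, and MIR3932b, MIR5996 and MIR5629 in exon sequence that no model translates.

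MIR2936 lies on chromosome 4 (1046804 to 1046983, minus strand), wholly within the first exon of SAG21 (AT4G02380). Whether that stretch is coding depends on the transcript model: it is coding in the model with the longest reading frame and wholly or nearly wholly 5′ untranslated in the other RefSeq models. SAG21, also called LEA5, encodes a small mitochondrial protein of the late embryogenesis abundant family that is known from senescence and oxidative stress. The MIR2936 count was 13.4% of the SAG21 count.

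MIR4228 lies on chromosome 1 (28889375 to 28889532, plus strand) in the single exon of the non-coding transcript AT1G09915. Its count was 81.9% of that gene's count, although it covers 158 of the gene's 1713 bases. Where the reads lie along AT1G09915 was not examined. The sequence of MIR4228 is shown with both mature arms in capitals.
MIR4228: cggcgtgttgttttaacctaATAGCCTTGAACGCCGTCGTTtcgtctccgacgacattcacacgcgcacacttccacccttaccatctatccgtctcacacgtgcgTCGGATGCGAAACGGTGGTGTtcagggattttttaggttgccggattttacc

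MIR8176 lies on chromosome 4 (11795177 to 11795275, plus strand) and shares 91 of its 99 bases with the small nucleolar RNA gene AT4G07075, within the long non-coding gene AT4G07070. Small nucleolar RNAs guide the chemical modification of ribosomal RNA and are abundant, stable RNAs. MIR8176 had 1710 counts in all and the small nucleolar RNA 1751, and the 2 rows cannot be told apart. The feature is printed with the mature miRNA in capitals.
MIR8176: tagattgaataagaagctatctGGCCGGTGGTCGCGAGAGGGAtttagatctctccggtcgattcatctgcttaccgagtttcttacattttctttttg

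MIR5642a (chromosome 3, 14196774 to 14197147, plus strand) and MIR5642b (chromosome 2, 2805 to 3176, plus strand) each lie 529 bases upstream of a gene annotated as 18S ribosomal RNA, AT3G41768 and AT2G01010. In the ribosomal RNA precursor, the stretch ahead of the 18S RNA is the 5′ external transcribed spacer, which is cut off and degraded as ribosomes are made. MIR5642a had 1.23 to 1.47 times the counts of MIR5642b, and more than it in 24 of 24 libraries. The libraries were depleted of ribosomal RNA before sequencing.

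Before cordycepin, the stimulus raised MIR2936 and lowered MIR3932b, MIR5996, MIR5629, MIR8170 and MIR5026. MIR2936 was 4.71-fold higher, and the 5 others fell by 0.87 to 1.71 on the log2 scale. MIR5642b was also called higher, by 0.27. In edgeR, 13 members passed the filter on low counts, and the quasi-likelihood test called 7 of these 13 at an adjusted p under 0.05, 2 higher and 5 lower (3 higher and 4 lower with library sizes scaled by total counts). Over all 20323 features tested, 56.3% were called, 26.6% higher and 29.7% lower, so that a call by itself was the rule in this comparison. The median log2 change was -0.16 over the 13 members and -0.02 over all features. A feature with few reads could pass the filter through its higher treatment alone, so these shares are descriptions. Without mock replicate 3, the single 0 min library with a high clock index, 6 members were called, 1 higher and 5 lower.

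MIR2936 stood at 6.13, 4.85 and 5.36 CPM in mock replicates 2, 3 and 4 and at 28.5, 28.4 and 21.4 CPM in the stimulus replicates. Every stimulus library lay above every mock library. The log2 change was 2.24 ± 0.14 (SE, adjusted p = 2.26e-06, edgeR), and SAG21 changed by 2.16 ± 0.09 (adjusted p = 5.49e-07). In all libraries the MIR2936 count was between 10.2 and 16.7% of the SAG21 count.

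MIR3932b stood at 2.12, 1.59 and 2.65 CPM in mock and at 0.894, 0.741 and 0.322 CPM in stimulus. It lies in the untranslated part of AT4G13575, in the last exon of its longest model, and AT4G13575 is an uncharacterised protein-coding gene. Its log2 change was -1.71 ± 0.35 (adjusted p = 0.00284) and that of AT4G13575 was -1.64 ± 0.23 (adjusted p = 0.000792). The treatments did not overlap.

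MIR5996 stood at 0.859, 0.868 and 0.684 CPM in mock and at 0.342, 0.302 and 0.205 CPM in stimulus, from 7 to 29 reads per library. It sits in UNE15 (AT4G13560), another gene of the late embryogenesis abundant family, in the untranslated part of the first exon or in an intron, depending on the transcript model. The member fell by 1.51 ± 0.31 on the log2 scale (adjusted p = 0.00273), and UNE15 fell by 0.85 ± 0.13 (adjusted p = 0.000465). Of the 7 called members, this pair had the widest gap between member and host, -0.66 log2 units, and the difference between the 2 changes was not tested.

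MIR8170 stood at 2.42, 2.54 and 2.26 CPM in mock and at 1.24, 1.51 and 1.23 CPM in stimulus, again without overlap. It lies in AT2G33255, a gene of the haloacid dehalogenase-like hydrolase family, mostly in an intron. MIR8170 changed by -0.88 ± 0.18 (log2, adjusted p = 0.00303) and AT2G33255 by -0.99 ± 0.08 (adjusted p = 1.15e-05).

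MIR5629, in the untranslated part of the last exon of NDL2 (AT5G11790), stood at 1.75, 2.21 and 2.17 CPM in mock and at 1.1, 0.933 and 1.17 CPM in stimulus. NDL2 encodes an N-MYC downregulated-like protein that binds the G protein β subunit. The log2 change was -0.96 ± 0.21 for the member (adjusted p = 0.00409) and -0.70 ± 0.11 for NDL2 (adjusted p = 0.000545).

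MIR5026 stood at 2.58, 3.17 and 2.59 CPM in mock and at 1.76, 1.92 and 0.936 CPM in stimulus. It lies in an intron of the non-coding transcript AT4G13495, which also contains the miRNA gene MIR850 and overlaps part of MIR863. MIR5026 changed by -0.87 ± 0.26 (log2, adjusted p = 0.0175), AT4G13495 by -0.92 ± 0.13 (adjusted p = 0.000337), MIR850 by -1.08 ± 0.28 (adjusted p = 0.0127) and MIR863 by -0.68 ± 0.16 (adjusted p = 0.00548). The 3 miRNA features and the transcript they overlap were thus lower together.

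MIR5642b stood at 154, 142 and 128 CPM in mock and at 185, 157 and 176 CPM in stimulus. The groups did not overlap, but the highest mock library (154 CPM) lay next to the lowest stimulus library (157 CPM). Its log2 change of 0.27 ± 0.10 passed narrowly (adjusted p = 0.0462) and lost the call without any one of 4 of the 6 libraries: mock replicate 3 (0.27, adjusted p = 0.0551), mock replicate 4 (0.20, adjusted p = 0.154), stimulus replicate 2 (0.24, adjusted p = 0.136) and stimulus replicate 4 (0.26, adjusted p = 0.103). Its copy MIR5642a changed by 0.23 ± 0.11 (adjusted p = 0.0919). The other 5 tested members, MIR4228, MIR8176, MIR8181, MIR2112 and MIR3434, were not called and had log2 changes between -0.36 and 0.22.

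**Figure D2:**
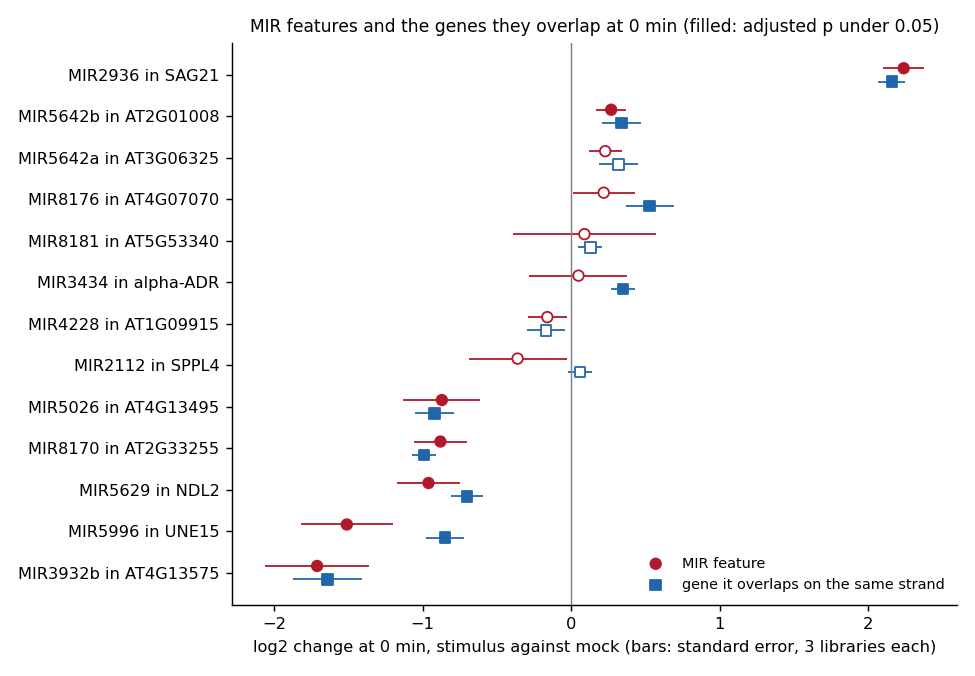
Log2 change at 0 min, stimulus against mock, of the 13 tested MIR features (red circles) and the gene each overlaps on the same strand (blue squares), with standard errors from 3 libraries per treatment; filled symbols have an adjusted p under 0.05. Members and overlapping genes lie on the same side of 0 in every pair but MIR2112 with SPPL4, and MIR5996 lies 0.66 log2 units below UNE15.

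For all 7 called members the overlapping gene was called in the same direction, where 26.6% of all features were called higher and 29.7% lower. Genes around uncalled members were called higher as well. These were AT5G22770 around MIR3434 (0.35 ± 0.08, adjusted p = 0.00516, edgeR) and AT4G07070 around MIR8176 (0.53 ± 0.16, adjusted p = 0.0175). Since a read may be counted in both rows, members and overlapping genes were not measured separately, and shared reads alone can give such agreement. The leaves were bulk samples, so fewer cells of a type and less RNA per cell cannot be told apart.

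Of the 5 lower members, 3 lie close together on chromosome 4. MIR5026, MIR5996 and MIR3932b fall within 46224 bases (7844496 to 7890719), a stretch that holds 27 features of the table. Of these, 17 were tested at 0 min, and 12 were called lower and 1 higher, against 29.7% and 26.6% over all features. The stretch was looked at after the members' values were known, and several of its features share reads. Its 2 ends, MIR5026 and MIR3932b, are themselves members called lower. The 12 include the 3 members, the genes they overlap, and MIR850 and MIR863. Much of this count was therefore fixed by the choice of the stretch. The higher one was AMT1;1 (AT4G13510), an ammonium transporter, at 0.69 ± 0.12 (log2, adjusted p = 0.00101). AT4G13500, a protein-coding gene that overlaps no member, fell by 1.64 ± 0.15 (adjusted p = 3.17e-05), and the miRNA gene MIR841a fell by 0.64 ± 0.24 (adjusted p = 0.0448). After cordycepin in stimulus leaves, 9 of 16 tested features of the stretch were called falling and 1 rising, against 12.1% and 9.01% of all features. These 9 include MIR5026, MIR850, MIR863 and the genes that the 3 members overlap.

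Over the 4 time points, with minutes as a factor, the treatments differed in 6 of 14 tested members. These were MIR2936, higher by 1.29 ± 0.23 (log2, adjusted p = 6.08e-05, edgeR), and MIR8170, MIR3932b, MIR5629, MIR5026 and MIR5996, lower by 0.86 to 1.80. Of all 21732 features, 53.3% were called, 26.2% higher and 27.1% lower. All 6 had also been called at 0 min, and no member was called here alone. With the clock side of each library as a term in the model, 6 members were called, 1 higher and 5 lower. Without replicate 2, 2 members were called, and with total counts 4, of which 2 were higher and 2 lower.

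MIR8170 differed between the treatments throughout. Its 12 mock values ran from 1.47 to 2.82 CPM and its 12 stimulus values from 0.936 to 1.62 CPM, so that only mock replicate 2 at 60 min, at 1.47 CPM, lay within the stimulus range. The log2 difference was -0.87 ± 0.14 (adjusted p = 1.49e-05). MIR2936 stood at 11.1, 13.1 and 6.97 CPM in the stimulus libraries of 240 min, inside its mock range of 4.06 to 14.0 CPM.

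**Figure D3:**
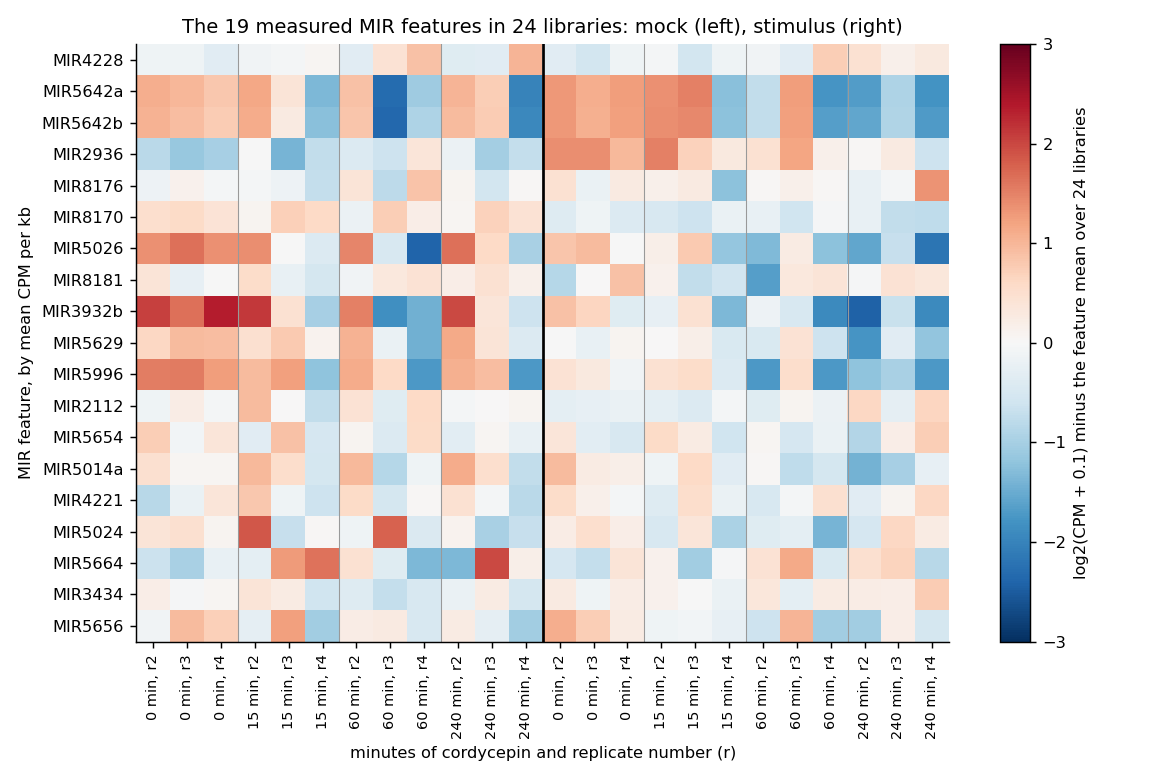
Log2(CPM + 0.1) of the 19 measured MIR features (rows, ordered by mean CPM per kb) in 24 libraries (columns, mock left of the black line and stimulus right of it), each minus the feature's own mean. MIR5642a and MIR5642b share 1 pattern, and MIR3932b, MIR5996 and MIR5026 are above their own mean in all 3 mock libraries of 0 min.

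After cordycepin, 4 members fell in stimulus leaves: MIR5642a, MIR5642b, MIR5026 and MIR2936. The slopes were -0.64 ± 0.17, -0.62 ± 0.17, -0.53 ± 0.16 and -0.30 ± 0.08 log2 units per hour (adjusted p = 0.0329, 0.0329, 0.0414 and 0.0323, edgeR, 12 libraries), which are falls relative to bulk RNA. As a straight line, they mean a halving in 93.2, 96.9, 114 and 198 min. These times describe the fitted line only, since the drop of MIR5642a came at different times in the different replicate numbers (below). Of 12 members tested, none was called rising. MIR5642a and MIR5642b are near copies that may share reads, so their calls are not separate results. Of all 21130 features, 21.1% were called, 12.1% falling and 9.01% rising. These calls rest on few libraries: no member was called without replicate 2, over 0 to 60 min alone, within the libraries of low clock index or within those of high clock index, and 2 were called without replicate 3. Over all features, these settings called 0 of 21045, 0 of 20690, 0 of 21569, 1 of 20917 and 3261 of 20991. The 4 settings with no member called thus made at most 1 call over all features. With the replicate number as a block, 8 members and 7358 of 21530 features were called.

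In mock leaves no member was called, nor any of the 20812 features tested (0% in edgeR), of which 277 had an unadjusted p under 0.05. DESeq2 also called 0 members. The 5 members with the smallest p were MIR4228 (slope 0.08 ± 0.09), MIR8181 (0.07 ± 0.09), MIR5996 (-0.17 ± 0.25), MIR3932b (-0.16 ± 0.25) and MIR3434 (-0.04 ± 0.11). Their adjusted p in edgeR was 0.961, and 0.965 for MIR3434.

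The difference in slope between the treatments was called for none of the 15 tested members and none of the 22006 features (0% in edgeR). The 5 members with the smallest p were MIR2936 at -0.33 ± 0.13 log2 units per hour, MIR5014a at -0.62 ± 0.26, MIR5642b at -0.55 ± 0.24, MIR5642a at -0.57 ± 0.25 and MIR2112 at 0.25 ± 0.14. The first 4 had an unadjusted p under 0.05 in edgeR and an adjusted p of 0.667, and MIR2112 had an adjusted p of 0.694. DESeq2 called 0 members. Calls in stimulus alone therefore do not show a difference between the treatments.

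Libraries of 1 treatment and 1 number, here called a series, differed widely between numbers. Each library is a separate sample, and whether a number links samples over time is not known. Deviations from the group mean in same-numbered mock libraries of 0 and 240 min correlated at -0.13, -0.23 and -0.11 (replicates 2, 3 and 4). MIR5642a in mock replicate 2 stood at 217, 226, 187 and 206 CPM at 0, 15, 60 and 240 min. In mock replicate 3 it stood at 202, 133, 20.4 and 169 CPM, and in mock replicate 4 at 176, 39.4, 48.5 and 25.0 CPM. Mock libraries numbered 2 thus stayed level, and those numbered 4 were low from 15 min on. Of those numbered 3, the library of 60 min was the lowest. Their clock index was 2.47, 2.23 and 0.73 at 0, 15 and 60 min and -1.18 at 240 min. The higher value at 240 min is thus from an unlike sample and does not show a recovery. The decline index of the mock libraries was 0.10, -0.21, -0.01 and -0.14 in replicate 2. It was -0.09, -0.61, -1.83 and -0.48 in replicate 3, and -0.01, -1.69, -2.65 and -2.94 in replicate 4.

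In stimulus leaves, MIR5642a stood at 250, 264, 60.6 and 31.7 CPM in replicate 2, at 216, 287, 242 and 52.9 CPM in replicate 3, and at 242, 42.7, 29.5 and 29.0 CPM in replicate 4. All 3 series ended at 52.9 CPM or less, but the drop came between 15 and 60 min, after 60 min, and before 15 min. The decline index was 0.18, -0.38, -1.61 and -2.83 in replicate 2, 0.12, 0.04, -0.41 and -1.65 in replicate 3, and -0.30, -1.77, -2.86 and -2.91 in replicate 4. In every library with an index of -1.61 or less MIR5642a was at 60.6 CPM or less, in either treatment, and in every other library it was at 133 CPM or more. Whether the index and the feature share a cause was not tested.

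**Figure D4:**
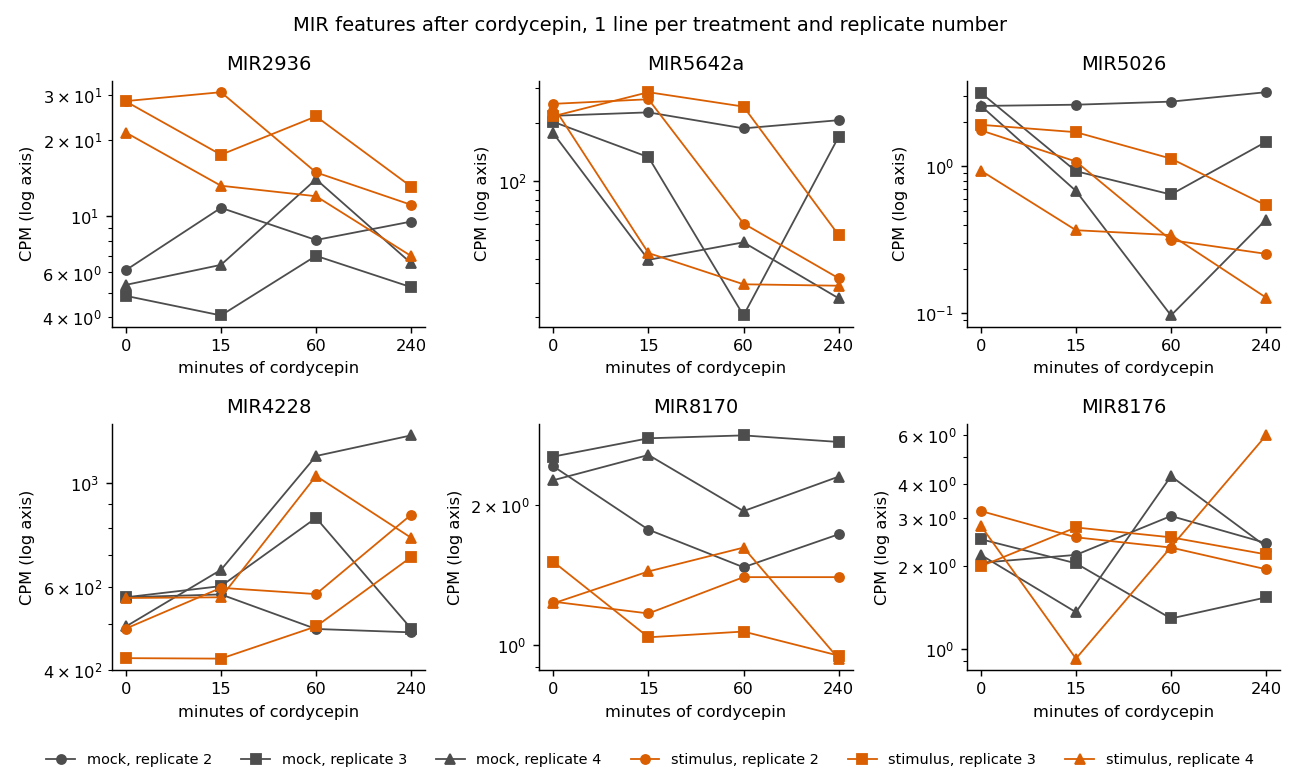
CPM (log axes, which differ between panels) of 6 MIR features at 0, 15, 60 and 240 min of cordycepin, with 1 line per treatment and replicate number. MIR5642a is low from 15 min on in both replicate 4 series and only at 240 min in stimulus replicate 3, and stays at 187 CPM or more in mock replicate 2, whereas MIR8170 stays within 0.936 to 2.82 CPM.

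MIR5026 followed a like course. It stood at 2.58, 2.63, 2.76 and 3.20 CPM in mock replicate 2, at 3.17, 0.928, 0.644 and 1.47 CPM in mock replicate 3, and at 2.59, 0.681, 0.0968 and 0.435 CPM in mock replicate 4. In stimulus it stood at 1.76, 1.08, 0.315 and 0.254 CPM in replicate 2, at 1.92, 1.71, 1.13 and 0.543 CPM in replicate 3, and at 0.936, 0.368, 0.341 and 0.128 CPM in replicate 4. Mock replicate 2 alone showed no fall. The host AT4G13495 fell in stimulus with a slope of -0.60 ± 0.13 (adjusted p = 0.0311).

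MIR2936 fell in stimulus from 28.5 to 11.1 CPM in replicate 2, from 28.4 to 13.1 CPM in replicate 3 and from 21.4 to 6.97 CPM in replicate 4 between 0 and 240 min. In mock it stood at 9.53, 5.25 and 6.53 CPM at 240 min, each above its own series' value at 0 min. SAG21 had a slope of -0.27 ± 0.08 in stimulus (adjusted p = 0.0355) and of 0.00 ± 0.09 in mock (adjusted p = 0.998).

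MIR3932b, MIR5996 and MIR5629 had slopes of -0.62 ± 0.23, -0.74 ± 0.28 and -0.27 ± 0.10 in stimulus. They missed the threshold in the main fit (adjusted p = 0.062, 0.0703 and 0.069, edgeR). Alternatives that called them numbered 3 for MIR3932b, 2 for MIR5996 and 4 for MIR5629. Their hosts AT4G13575 and NDL2 were called falling at -0.50 ± 0.13 and -0.41 ± 0.11 (adjusted p = 0.0318 and 0.0323), and so was UNE15 (adjusted p = 0.0311). MIR5996 was at 0 to 13 counts in the stimulus libraries of 60 and 240 min.

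MIR4228 moved the other way without passing the test, at 0.14 ± 0.06 log2 units per hour in stimulus (adjusted p = 0.0901). Its highest values were 1260 and 1139 CPM in mock replicate 4 at 240 and 60 min and 1033 CPM in stimulus replicate 4 at 60 min, libraries with a decline index of -2.94, -2.65 and -2.86. In mock replicate 2, where the index stayed at -0.21 or more, MIR4228 stood at 480 to 578 CPM. MIR8176, on the small nucleolar RNA, had a slope of 0.12 ± 0.10 (adjusted p = 0.33), and MIR8170 one of -0.06 ± 0.06 (adjusted p = 0.446). CPM is a share of the counted RNA and not an absolute amount.

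**Figure D5:**
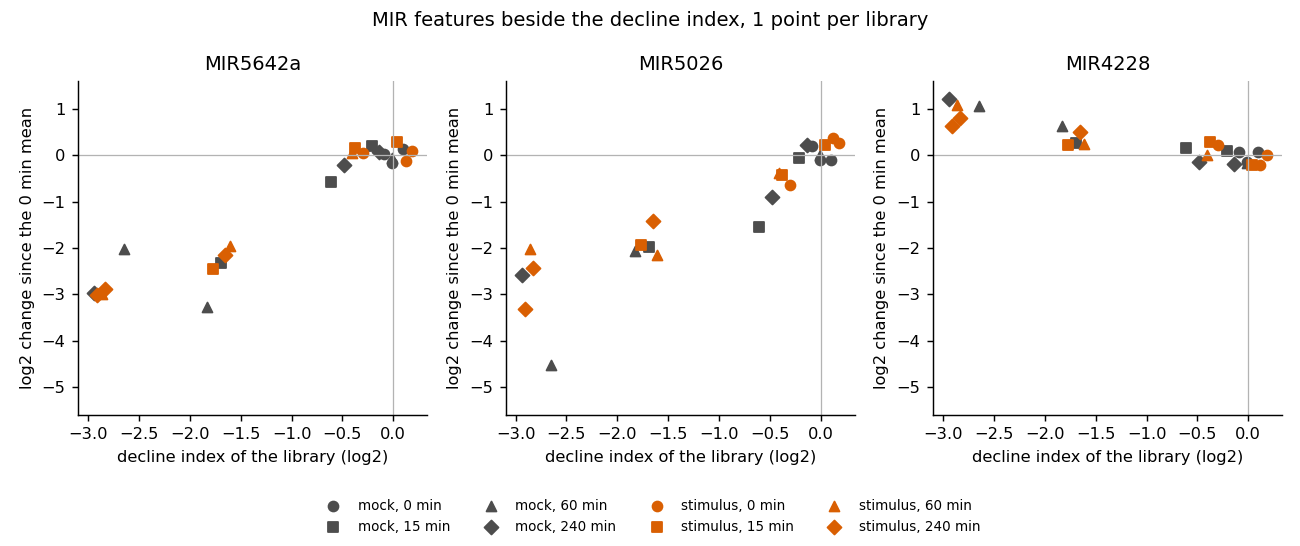
Log2 change of MIR5642a, MIR5026 and MIR4228 since the 0 min mean of the treatment against the decline index of each of 24 libraries, with 1 point per library, grey for mock and orange for stimulus and a marker for each time. MIR5642a and MIR5026 are low where the index is low, in both treatments, while MIR4228 lies above 0 there.

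The 178 miRNA genes under locus numbers were measured more often, 47 of them or 26.4%, and only 12 of those 47 lay inside a gene on the same strand. At 0 min, 12 of the 36 tested were called, 2 higher and 10 lower, with a median log2 change of -0.38, while 56.3% of all features were called, 26.6% higher and 29.7% lower. The following were picked after their values were seen. MIR167d (AT1G31173), whose miRNA targets auxin response factors, stood at 4.17 ± 1.22 CPM in mock (SD, n = 3) and at 0.0368 ± 0.0157 CPM in stimulus. MIR157c (AT3G18217), of the family that holds back the ageing-linked SPL factors, stood at 1.27 ± 0.176 and 0.0627 ± 0.0596 CPM. The family did not move as one. MIR156d was also lower, at 0.492 ± 0.124 and 0.165 ± 0.0399 CPM. The means of MIR156c (0.631 ± 0.202 and 1.06 ± 0.383 CPM), MIR156b (0.19 ± 0.0321 and 0.396 ± 0.157) and MIR156a (0.231 ± 0.0493 and 0.293 ± 0.101) were higher in stimulus. MIR824 (AT4G24415) was higher, at 1.89 ± 0.385 in mock and 4.65 ± 1.34 CPM in stimulus. After cordycepin in stimulus, 7 of 27 tested were called, all falling, where 12.1% of all features were called falling, and in mock 0 of 31 were (edgeR; 0 at an unadjusted p under 0.05, and 0 by DESeq2).

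The genes that make and use miRNAs changed in both directions at 0 min. Of 26 listed and tested, 12 were called, 8 higher and 4 lower, with a median log2 change of 0.12, where 56.3% of all features were called. With total counts, 17 were called, 14 higher and 3 lower. Higher were PRL1 (0.69 ± 0.09, adjusted p = 0.000167) and CDC5 (0.44 ± 0.10, adjusted p = 0.00561), parts of a complex that binds primary transcripts and DICER-LIKE1. STA1, a splicing factor with a part in miRNA processing, was higher by 0.50 ± 0.11 (adjusted p = 0.00419), and SQN, a cyclophilin that helps load ARGONAUTE1, by 0.45 ± 0.11 (adjusted p = 0.0057). DCL1 itself fell by 0.31 ± 0.07 (adjusted p = 0.00494), from 27.8 ± 0.4 to 22.8 ± 0.729 CPM (SD, n = 3). AGO10, which withholds miR165 and miR166 from ARGONAUTE1, fell by 0.63 ± 0.10 (adjusted p = 0.00053), AGO7, the partner of miR390, fell by 0.72 ± 0.12 (adjusted p = 0.000709), and the small RNA nuclease SDN2 fell by 0.61 ± 0.11 (adjusted p = 0.00143).

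Genes known as targets of conserved miRNAs were called lower more often than higher under the stimulus. Of 77 listed, 71 were tested and 44 called, 36 lower and 8 higher, with a median log2 change of -0.33. Of all features, 56.3% were called, 29.7% lower and 26.6% higher, with a median of -0.02. The list holds no gene entered as a target of a measured member's miRNA. With library sizes scaled by total counts, 39 were called, 23 lower and 16 higher; that scaling moved the median log2 change of all features to 0.23. Among targets of miR156, which are SPL transcription factors, 7 of 9 were called, all lower, and among those of miR172, 5 of 6 were lower and 1 higher. SMZ and SNZ, floral repressors of the miR172 group, fell by 3.08 ± 0.24 (adjusted p = 9.48e-06) and 1.49 ± 0.09 (adjusted p = 2.14e-06). The auxin response factor ARF8, a miR167 target, fell by 1.40 ± 0.08 (adjusted p = 1.93e-06), from 23.6 ± 1 to 9.08 ± 0.556 CPM (SD, n = 3). TCP10, a miR319 target that limits leaf growth, fell by 0.96 ± 0.09 (adjusted p = 2.06e-05).

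Among the targets that rose were HD-ZIP III factors of miR166, which specify vascular cells and the upper leaf side. Of their 5 genes, 3 were called, all higher, where 26.6% of all features were called higher. ATHB8 rose from 25.4 ± 1.86 to 169 ± 21.2 CPM (SD, n = 3; log2 change 2.71 ± 0.11, adjusted p = 4.56e-07), REV by 1.32 ± 0.07 (adjusted p = 1.65e-06) and PHV by 0.45 ± 0.09 (adjusted p = 0.00273). GRF7, a growth-regulating factor of the miR396 group, rose by 3.46 ± 0.51 (adjusted p = 0.000412, edgeR). It lay at 0.0893 to 0.15 CPM in mock and at 0.614 to 1.87 CPM in stimulus.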

How the data were processed

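Ribosome-depleted total RNA of 24 leaf samples was sequenced as stranded single reads, per the labels' protocols. The authors deposited whole-number read counts per feature, neither normalised nor pooled. TopHat2, Bowtie2 and the TAIR10 build are named in the submitters' processing notes, and the counting rule is not given in the sources used here. Positions, mature miRNAs and overlapping genes came from RefSeq TAIR10.1. The members and gene lists were chosen with earlier results of these data known. Counts were fitted over all features with edgeR 4.0.16 in R 4.3.3 (filterByExpr, TMM scaling, robust quasi-likelihood tests, two-sided, with Benjamini-Hochberg adjustment and calls at an adjusted p under 0.05). Slopes are a straight line on hours, relative to bulk RNA, because TMM does not follow a loss of all RNA. DESeq2 1.42.0, other scalings and filters, and leaving out libraries were alternatives. The fits were run on simulated counts with a single fixed spread, changes only in well-counted features and no replicate or clock structure. That run cannot speak for members with few reads or for the uneven libraries here. CPM uses TMM sizes over 24 libraries. Named members were those called at 0 min, the 10 with the highest mean CPM, those called in a slope fit (or the 5 with the smallest p of a fit with fewer than 5 calls) and, from each list, up to 4 called genes per direction with the smallest adjusted p. Every replicate pair of a group differed by at least 6.52 in chi-square per degree of freedom, so none was a duplicate. Nothing says that they came from separate plantings, so p-values measure the spread between these samples only. Samples were grouped by their titles.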

Additional observations from a re-analysis of the deposited data

How the results depend on the processing

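At 0 min, 6 to 8 members were called under the 13 alternatives, and under total counts the split was 3 higher and 4 lower. Over the 4 time points, 4 were called under total counts (2 higher, 2 lower), and 2 to 6 when a replicate number was left out. The slope in stimulus depended on the processing: 7 members were called by DESeq2 (7095 of 21130 features), 7 with a decay factor from ribosomal protein genes (7957 features, 7504 of them falling), 0 over 0 to 60 min only (0 of 20690), 0 within the libraries of low clock index (0 of 21569), 0 within those of high clock index (1 of 20917), and 0 to 5 when a replicate was left out (0 to 4234). In mock, 2 members were called within the high clock libraries (MIR4228 rising and MIR5996 falling, with 5000 of 20548 features called over 4 libraries) and 0 under every other alternative. The difference in slope gave 0 members under all 17 alternatives. The alternatives by clock index, and those without a series of 1 treatment, were chosen after seeing the data. Under total counts 17 machinery genes were called (14 higher, 3 lower). The cause of these changes was not tested. Uncalled members changed sign at 0 min: MIR4228 to 0.08 under total counts, MIR3434 ranged from -0.02 to 0.22 and MIR8181 from -0.53 to 0.48 when 1 library was left out, and MIR8181 stood at -0.01 with the replicate block. MIR5026 lost its call at 0 min under total counts (-0.62, adjusted p = 0.0758). Same-numbered mock and stimulus libraries had deviations that correlated between -0.14 and 0.80, over 0.1 in 8 of 12 pairs. The labels name no shared batch, and the main fits left the numbers unpaired. Whether the numbers mark a batch is not settled here. As a hint of pairing from the data, 14 of 24 libraries correlated best with the library of their own number, among 3 candidates each. With the replicate block, 6 members were called at 0 min, 6 over the 4 time points, 8 in the stimulus slope (7358 of 21530 features), 0 in the mock slope and 0 in the slope difference, and 13 machinery and 41 target genes were called. Depth limits the members with few reads, such as MIR5996.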
